A study of Mus musculus with 2 samples.

Results

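In GATA4 ChIP-seq of adult mouse liver, 1496 of 5867 peaks called by MACS2 (25.5%) shared no base with any peak called by SPP on the same data. These MACS2-only peaks were chosen by that overlap alone, from the deposited MACS2 and SPP lists, and were set against the 4371 MACS2 peaks that did overlap an SPP peak. The SPP list held 4811 peaks. MACS2 and SPP both look for stretches of the genome with more ChIP reads than the input, but score them in different ways.

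The ChIP sample was whole liver of mice on a mixed C57BL/6 x Sv129 background, precipitated with the GATA4 antibody C-20. The labels give an age of 2 to 3 months, and the methods a slightly older range. The input sample was DNA of the same tissue, strain and age without antibody. No file of it was analysed here, and the peak callers alone made use of it. Per the methods there were 2 biological replicates of 2 mice each, with peak calls made for each of them and for their reads combined. The lists used here cover both replicates together, so values per replicate were not analysed here, and every test below counts peaks of that pooled sample. Such tests speak of these lists and not of the spread between mice. All peaks carried the same display score of 1000, and read depth per peak is unknown. Whole liver mixes hepatocytes with endothelial, Kupffer, stellate and bile duct cells, and a peak list cannot tell which of them held GATA4 at a site.

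GATA4 is a zinc finger transcription factor that binds GATA sequences and works with Friend of GATA (FOG) cofactors. Its preferred site is written WGATAR, where W is A or T and R is A or G, and shorter versions keep only WGATA or GATAR. In liver, GATA factors are known for their part in the growth of the embryonic liver bud and in the identity of sinusoidal endothelium. Many promoters of broadly used genes lie in CpG-rich DNA, which is poor in A and T and so leaves little room for GATA sequences, and holds sites for SP and KLF factors.

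The sequences below come from mm9, plus strand, with matches to WGATAR on either strand in capitals. A match on the minus strand reads as its reverse complement, for example TTATCA for TGATAA. The leading 4 come from MACS2-only peaks with a match in the central 300 bp, outside exons. Among such peaks they stood nearest to the top of the MACS2 list. The peak near Hjurp, which encodes a chaperone of the centromeric histone, had the lowest number of all (265).
Hjurp, chr1:90184825-90184904: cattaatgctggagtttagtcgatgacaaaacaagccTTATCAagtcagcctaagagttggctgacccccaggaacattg
Dusp6, chr10:98733380-98733459: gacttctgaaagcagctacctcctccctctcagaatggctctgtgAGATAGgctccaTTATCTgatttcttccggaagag
Sdpr, chr1:51357423-51357502: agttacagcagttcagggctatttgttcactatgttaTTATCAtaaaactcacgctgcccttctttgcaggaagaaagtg
Dcbld1, chr10:51995138-51995217: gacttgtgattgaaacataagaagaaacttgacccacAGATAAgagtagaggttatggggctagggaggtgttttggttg

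The next set comes from MACS2-only peaks at the transcription start sites (TSS) of genes with a known role in liver, and shows promoters with a GATA sequence. Lcat esterifies cholesterol in plasma lipoproteins, Hpd breaks down tyrosine, Otc is an enzyme of the urea cycle, F10 is coagulation factor X, Cdh5 is the cadherin of endothelial junctions and Foxa1 is a forkhead factor that opens chromatin. Stretches that touched an untranslated region were cut to 30 bases.
Lcat, chr8:108467287-108467366: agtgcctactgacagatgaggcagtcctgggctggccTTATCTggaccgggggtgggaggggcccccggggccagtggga
Hpd, chr5:123632782-123632861: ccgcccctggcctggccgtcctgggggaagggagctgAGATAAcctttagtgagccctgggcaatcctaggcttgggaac
Foxa1, chr12:58647868-58647947: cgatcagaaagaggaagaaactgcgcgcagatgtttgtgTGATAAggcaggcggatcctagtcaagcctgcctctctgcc
Otc, chrX:9829383-9829412: ccctgccctactCTATCTctaacaaggctg
F10, chr8:13037735-13037764: atcagaaggctgAGATAAgcagaaggccca
Cdh5, chr8:106625663-106625692: cctgtctcatggAGATAAaactgggagagt

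Other promoters of the same kind had no WGATAR in the central 300 bp and carried GGGCGG, the binding sequence of SP and KLF factors, here in capitals. Glul encodes glutamine synthetase, Amotl2 a protein of cell junctions and Asl argininosuccinate lyase of the urea cycle.
Glul, chr1:155748459-155748538: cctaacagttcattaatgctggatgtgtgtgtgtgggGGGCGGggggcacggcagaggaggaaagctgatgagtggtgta
Amotl2, chr9:102619993-102620022: gagagcggaggaGGGCGGcgcgctgagagg
Asl, chr5:130499915-130499944: tgatgccatgttGGGCGGttcctcctcctc

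The last pair shows MACS2-only peaks with many matches to WGATAR. The peak near E2f7, a repressor of the E2F family, held 7 in its central 300 bp, the highest number found, and its match recurs with much the same neighbouring bases. The peak in the first intron of Plekhg1 held 5.
E2f7, chr10:110255385-110255464: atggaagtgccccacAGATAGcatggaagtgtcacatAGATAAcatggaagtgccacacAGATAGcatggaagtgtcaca
Plekhg1, chr10:6559290-6559369: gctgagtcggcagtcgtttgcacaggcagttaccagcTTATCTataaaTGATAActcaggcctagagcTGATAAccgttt

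MACS2-only peaks stood low in the MACS2 list. Their numbers ran from 265 to 5867 with a median of 4797, against a median of 2211 for overlapping peaks. Only 17 of them were among the leading 2000 peaks, and 1138 had numbers over 4000. Their share of the list was 0.400% in peaks 1 to 500, 11.2% in peaks 2501 to 3000, 46.4% in peaks 4001 to 4500 and 77.9% in the last 367. The files do not say what the numbering follows, and the methods say only that MACS2 peaks were sorted by p-value for the replicate analysis. List number and width come from the same calls as the choice of these peaks, so they are described here with no test. The median width was 632 bp (range 238 to 3769) against 614 bp in overlapping peaks (250 to 2963).

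**Figure D1:**
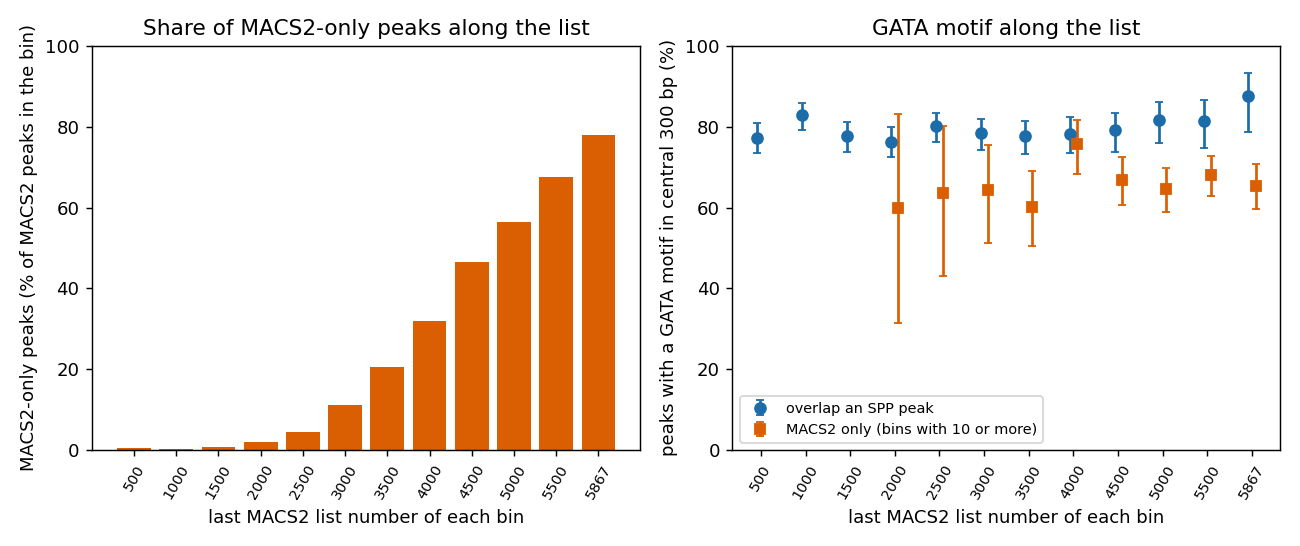
Left, share of MACS2-only peaks in each bin of 500 positions of the MACS2 list (the last bin holds 367), which climbs from 0.400% to 77.9%. Right, percent of peaks with the GATA motif WGATAR in the central 300 bp for both kinds of peak in the same bins, with Wilson 95% intervals; MACS2-only peaks are drawn in bins that held at least 10 of them and lie below overlapping peaks in each of those bins.

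Most MACS2-only peaks were far from any SPP peak. The median gap was 52180 bp, 527 of them (35.2%) were more than 100000 bp away and 297 (19.9%) at most 10000 bp. The closest, number 4266 near Baz1b, left a gap of 132 bp, followed by 189 bp near Prickle2 and 207 bp near Dlc1. On the other side of the threshold, the smallest overlap was 80 bp, seen in 58 peaks, and 80 bp was also the width of the narrowest SPP peak. In 52 MACS2-only peaks the gap was under 1000 bp.

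The GATA motif was less frequent in MACS2-only peaks than in overlapping ones. WGATAR was found in the central 300 bp of 996 of 1496 MACS2-only peaks (66.6%, Wilson 95% interval 64.1 to 68.9) and of 3455 of 4371 overlapping peaks (79.0%, 77.8 to 80.2). The difference was -12.5 percentage points (-15.2 to -9.82, Fisher's exact test, adjusted p = 2.36e-20 over 11 features). With the short forms WGATA and GATAR counted too, the shares were 81.4% (79.3 to 83.2) and 90.2% (89.2 to 91.0), a difference of -8.81 points (Fisher's exact test, adjusted p = 1.56e-17). The share of all 300-bp tiles of the genome that held a match was 50.5% for WGATAR and 77.9% for the set with short forms. In the whole peak, WGATAR was present in 85.0% of MACS2-only and 92.1% of overlapping peaks.

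MACS2-only peaks still held the motif more often than the DNA next to them. Of windows of the same width placed 5000 bp to the right, 41.6% (39.2 to 44.2) had WGATAR, against 66.6% in the peaks. The motif was in the peak alone in 574 pairs and in the flank alone in 201 (exact McNemar test, 2-sided, p = 2.26e-42). Overlapping peaks stood at 79.0% against 43.6% in their flanks.

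Multiple matches were also less common. MACS2-only peaks had no WGATAR in 33.4%, 1 in 39.3%, 2 in 19.3%, 3 in 5.68% and 4 or more in 2.34%. The same classes made up 21.0%, 40.7%, 25.8%, 9.72% and 2.84% of overlapping peaks. All 4 spellings of the motif were found in a smaller share of MACS2-only peaks. AGATAA was in 35.8% against 47.4%, TGATAA in 24.3% against 30.4%, AGATAG in 17.7% against 21.4% and TGATAG in 12.6% against 14.7%. Of all matches, AGATAA made up 41.1% in MACS2-only peaks and 43.3% in overlapping ones, so the mixture of spellings was much alike.

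Matches gathered at the peak midpoint in both kinds of peak. MACS2-only peaks had 9.83 matches per 100 peaks within 10 bp of the midpoint and 3.48 in the outermost bin on the left, 230 to 250 bp away. Overlapping peaks had 12.3 and 3.59 in the same bins. Among peaks with a match within 250 bp, the nearest was a median of 53 bp from the midpoint in 1154 MACS2-only peaks and 45 bp in 3867 overlapping peaks.

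**Figure D2:**
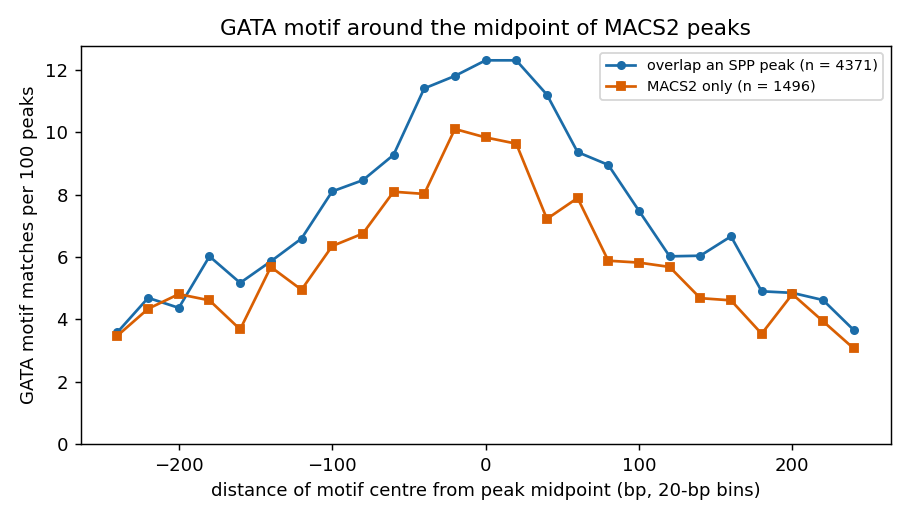
Matches to the GATA motif WGATAR per 100 peaks, in bins of 20 bp by distance from the peak midpoint (bp). Both lines peak near the midpoint, at 10.1 for MACS2-only peaks and 12.3 for overlapping peaks, and come close to each other at the edges.

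MACS2-only peaks were found more often at start sites. Their midpoint lay within 1 kb of a TSS in 393 cases (26.3%), against 787 overlapping peaks (18.0%), a difference of 8.27 points (5.80 to 10.8, Fisher's exact test, adjusted p = 4.27e-11). Promoter proximal midpoints, from 5 kb upstream of a TSS to the end of the first exon, made up 32.0% and 25.9%, a difference of 6.07 points (3.41 to 8.80, Fisher's exact test, adjusted p = 1.51e-05). Midpoints in the rest of the gene, from the second to the penultimate exon, were less common, with 30.3% and 34.0% (difference -3.63 points, -6.31 to -0.872, Fisher's exact test, adjusted p = 0.0182). A midpoint can fall in more than 1 of these classes, since genes have several transcripts. From the midpoint to the closest TSS it was a median of 8594 bp for MACS2-only and 10447 bp for overlapping peaks.

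The other location classes did not pass the test. First introns held 27.9% of MACS2-only and 27.2% of overlapping midpoints (difference 0.695 points, -1.89 to 3.36, Fisher's exact test, adjusted p = 0.614). Stretches from the last exon to 5 kb past the gene held 16.9% and 15.6% (1.33 points, -0.793 to 3.57, Fisher's exact test, adjusted p = 0.323). Intergenic midpoints were 28.3% and 29.1% (-0.780 points, -3.39 to 1.91, Fisher's exact test, adjusted p = 0.614). More than 50 kb from any TSS lay 14.4% and 16.1% (-1.71 points, -3.74 to 0.437, Fisher's exact test, adjusted p = 0.184). This last difference passed when only peaks of like position in the MACS2 list were compared, at -4.01 points within bins of 250 positions (exact Cochran-Mantel-Haenszel test, adjusted p = 0.00657).

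No difference in how peaks stood in groups passed the test. Another MACS2 peak of either kind lay within 10 kb of 25.5% of MACS2-only and 24.7% of overlapping peaks (difference 0.737 points, -1.77 to 3.33, Fisher's exact test, adjusted p = 0.614). An overlapping peak was within that distance of 290 MACS2-only peaks, and another MACS2-only peak of 123.

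The centres of MACS2-only peaks were richer in G and C. Their central 300 bp had a mean GC content of 52.4% ± 8.96 (SD over 1496 peaks), against 49.7% ± 7.40 over 4371 overlapping peaks, a difference of 2.69 points (permutation test, 2-sided, p = 1e-05, the smallest that 100000 resamples can give). Flanking windows had 45.6% and 45.1%. A centre was called CpG-rich at a GC content of at least 50% and a CpG observed over expected ratio of at least 0.6. This held for 296 MACS2-only peaks (19.8%) and 454 overlapping peaks (10.4%), a difference of 9.40 points (7.24 to 11.7, Fisher's exact test, adjusted p = 1.09e-18). Of CpG-rich MACS2-only peaks 86.5% lay within 1 kb of a TSS, and of the other MACS2-only peaks 11.4%.

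**Figure D3:**
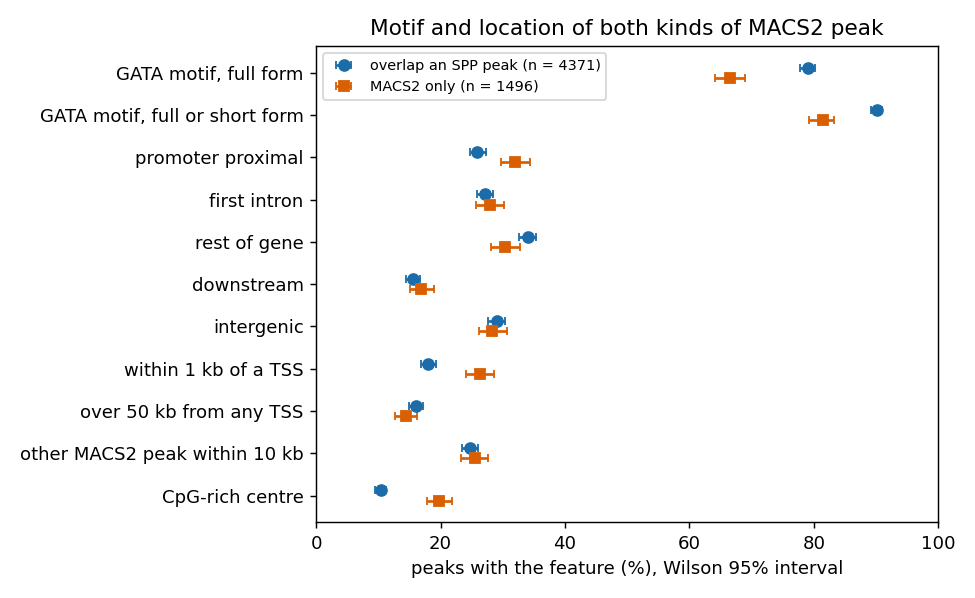
Percent of MACS2-only peaks (squares, n = 1496) and overlapping peaks (circles, n = 4371) with each motif or location feature, with Wilson 95% intervals. The squares lie left of the circles for both GATA motif sets (66.6% and 79.0% for the full form) and right of them for CpG-rich centres (19.8% and 10.4%) and start sites (26.3% and 18.0%).

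The share with the GATA motif was lowest in CpG-rich centres; whether the gap between the 2 kinds of peak differed between CpG-rich and other centres was not tested. Among CpG-rich MACS2-only peaks 76 of 296 had WGATAR (25.7%, 21.0 to 30.9), against 47.6% (43.0 to 52.2) of CpG-rich overlapping peaks. The flanks of these CpG-rich MACS2-only peaks had it in 42.6%, more than the peaks themselves. Among other centres the shares were 76.7% (74.2 to 79.0) and 82.7% (81.5 to 83.8). Away from start sites, in centres that were not CpG-rich, 834 of 1063 MACS2-only peaks had WGATAR (78.5%), against 83.1% of overlapping peaks. Of the 500 MACS2-only peaks with no WGATAR, 49.8% lay within 1 kb of a TSS.

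**Figure D4:**
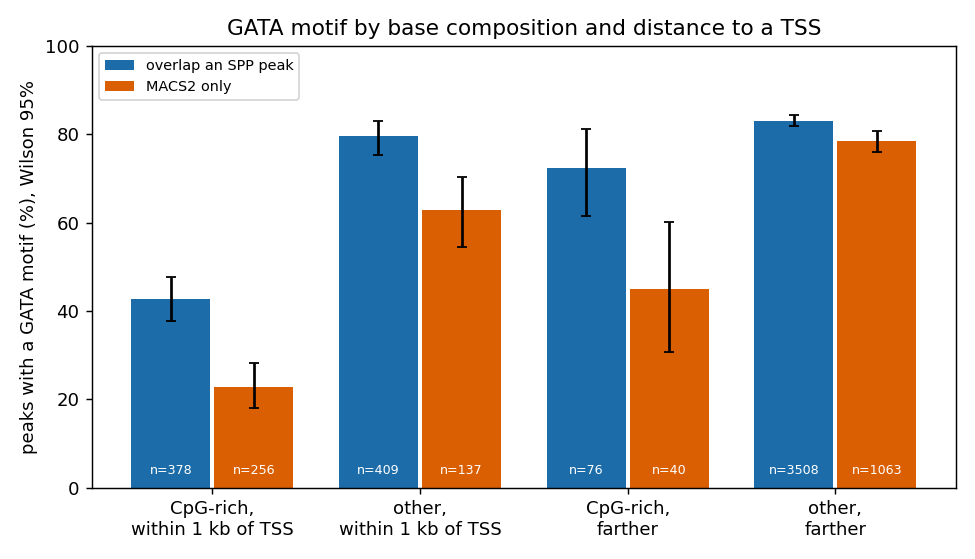
Percent of peaks with the GATA motif WGATAR in the central 300 bp, split by CpG-rich or other centres and by distance to the nearest TSS, with Wilson 95% intervals and the number of peaks in each bar. MACS2-only bars are lower in all 4 classes, from 22.7% against 42.6% at CpG-rich start sites to 78.5% against 83.1% in other centres farther away.

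Base composition and list position both moved with these differences, and tests within classes of either, chosen for composition after the data were seen, changed some of them. The difference in WGATAR was -8.62 points within CpG-rich and other centres (exact Cochran-Mantel-Haenszel test, p = 6.61e-12) and -6.80 points within bins of 5 points of GC content (exact test, p = 4.54e-08). It was -3.71 points within bins of both GC content and 500 list positions (exact test, p = 0.0202). For the set with short forms the last value was -2.27 points and did not pass (exact test, p = 0.0576). The excess of start sites was 1.34 points within CpG-rich and other centres (exact test, p = 0.169). That of promoter proximal midpoints was 0.204 points (exact test, p = 0.878), so neither was called within these 2 classes. Bins of GC content were not tested for them. Of MACS2-only peaks, 86.5% of the CpG-rich and 11.4% of the others lay within 1 kb of a TSS. This split therefore cannot tell composition from location. List position alone did not lower the differences. Within bins of 250 positions they were -13.9 points for WGATAR, 11.8 for start sites and 13.6 for CpG-rich centres.

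Of 14 sequences bound by other factors, 2 were more frequent in MACS2-only peaks (14.3%) and 5 less frequent (35.7%), at an adjusted p of at most 0.05 over the 14 (Fisher's exact test). Each was matched by its letters on both strands, and matches of different motifs may share bases. GGGCGG of SP and KLF factors was in 22.2% of MACS2-only and 13.9% of overlapping peaks (8.28 points, 5.99 to 10.7, Fisher's exact test, adjusted p = 3.92e-12), against 2.86% of genome tiles. It was in 71.3% of CpG-rich MACS2-only peaks and 10.1% of the others, and the matching overlapping peaks had it in 62.8% and 8.25%. The ETS set of ACGGAAG and CCGGAAG and ACAGGAAG and GAGGAAG and CAGGAAG was in 47.2% and 43.7% (3.52 points, 0.599 to 6.44, Fisher's exact test, adjusted p = 0.0375), against 21.9% of flanks of MACS2-only peaks and 18.4% of genome tiles. ETS factors include regulators of endothelial genes. The ETS call was lost in the central 100 bp (0.904 points, Fisher's exact test, adjusted p = 0.710), in peaks numbered 1 to 4000 (5.76 points, adjusted p = 0.133, Fisher's exact test) and without MACS2-only peaks under 1000 bp from an SPP peak (3.28 points, adjusted p = 0.0603, Fisher's exact test). It was kept within bins of 250 list positions (5.71 points, exact Cochran-Mantel-Haenszel test, adjusted p = 0.00722). In centres that were not CpG-rich the ETS shares were 48.0% and 43.5%, and in CpG-rich ones 43.9% and 44.9%.

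The 5 less frequent sequences belong to factors of liver and of many tissues. None of the motifs of other factors was tested within classes of GC content or of CpG-rich centres. Whether their differences go with base composition was therefore not tested. The E-box CANNTG of helix-loop-helix factors was in 72.5% of MACS2-only and 77.3% of overlapping peaks (-4.82 points, Fisher's exact test, adjusted p = 0.00138). AGGTCA, bound by nuclear receptors, was in 25.4% and 29.2% (-3.84 points, Fisher's exact test, adjusted p = 0.0131). TTGCNCAA and TTGCNNAA of C/EBP factors were in 194 MACS2-only and 724 overlapping peaks (-3.60 points, Fisher's exact test, adjusted p = 0.00391). TGTTTAC and TGTTTGC of FOXA factors were in 12.4% and 15.4% (-2.99 points, Fisher's exact test, adjusted p = 0.0131). ACAAAGG and ACAATGG of SOX and TCF/LEF factors were in 164 and 593 peaks (-2.60 points, Fisher's exact test, adjusted p = 0.0222). Several of these calls were lost elsewhere. In the central 100 bp those of FOXA (-0.882 points), SOX (-0.992), the E-box (-1.75) and AGGTCA (0.0462) did not pass. In peaks numbered 1 to 4000, with 358 MACS2-only peaks, those of FOXA (-3.37), C/EBP (-4.00) and SOX (-2.42) did not. Within bins of 250 list positions all 5 were kept, from -5.74 points for the E-box to -2.90 for SOX (exact Cochran-Mantel-Haenszel test). The E-box is contained in more of the genome tiles (79.9%) than of MACS2-only peaks, and C/EBP sequences in 13.8% of tiles. SOX and TCF/LEF sequences were in 11.2% of tiles, also slightly more than of MACS2-only peaks. For FOXA (10.4%) and AGGTCA (16.2%) the share of tiles was lower than that of MACS2-only peaks.

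Motifs of HNF4 (4.81% and 5.31%), HNF1 (0.201% and 0.252%), Onecut (2.27% and 2.72%), AP-1 (7.42% and 6.66%), NFI (18.3% and 20.7%), NF-Y (31.4% and 32.6%) and CTCF (2.34% and 2.01%) did not pass. They were matched as CAAAGTCC and CAAAGTTC for HNF4, TGACTCA and TGAGTCA for AP-1 and CCAAT for NF-Y. Onecut was matched as ATCGATTT and ATTGATTT and ATCAATAA, and HNF1, NFI and CTCF by the longer sequences known under these names, NFI also as TTGGCA. HNF1 was found in only 3 MACS2-only peaks, so little could be detected for it.

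**Figure D5:**
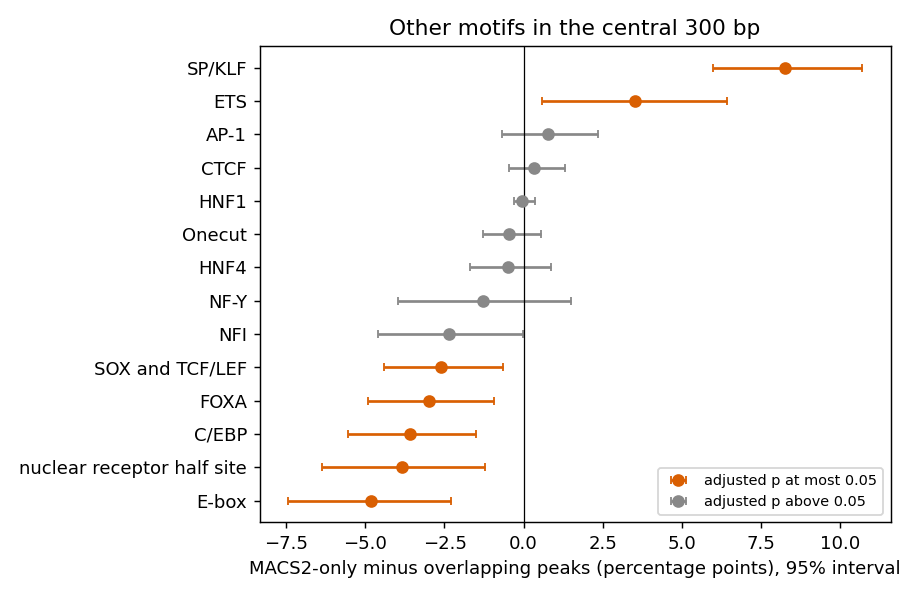
Difference in the percent of peaks with each motif in the central 300 bp, MACS2-only minus overlapping peaks, in percentage points with Newcombe 95% intervals; coloured points passed at an adjusted p of at most 0.05. SP/KLF (8.28) and ETS (3.52) lie to the right of 0, and the E-box (-4.82) farthest to the left.

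A count of all 2080 words of 6 bases, with a word and its reverse complement taken as 1, gave 237 words more frequent in MACS2-only peaks (11.4%) and 150 less frequent (7.21%, Fisher's exact test, adjusted p at most 0.05). The 5 with the largest excess were rich in G and C. They were CCCGCC (22.8% against 14.2%) and CCGCCC (22.2% against 13.9%) and CCCCGC (19.9% against 11.7%) and GCCTCC (32.0% against 23.9%) and CGCCCC (18.4% against 10.9%). CCGCCC is the SP and KLF sequence read on the other strand. The 5 with the largest deficit all held GATA on either strand. They were AGATAA (35.8% against 47.4%) and CTTATC (29.3% against 40.0%) and CAGATA (21.3% against 28.1%) and TGATAA (24.3% against 30.4%) and CTGATA (21.5% against 27.5%). These words overlap one another and are not separate findings. They were not tested within classes of GC content.

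MACS2-only peaks were tied to genes by the nearest protein-coding TSS within 50 kb. This assigned 1166 of them (77.9%) to 1053 genes, which is 4.71% of the 22372 protein-coding genes of the annotation, while overlapping peaks reached 2566 genes (11.5%). Of the 1053 genes, 388 also held an overlapping peak (36.8% of the genes with a MACS2-only peak, 15.1% of those with an overlapping one), and 665 were reached by MACS2-only peaks alone. The lists of genes below were written with earlier results of these data known, and their shares are descriptions. Together they held 301 genes of the annotation, of which 57 (18.9%) had a MACS2-only peak and 128 (42.5%) an overlapping one. Both shares were above those over all genes.

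The genes of sinusoidal endothelium had the most MACS2-only peaks of the cell type lists. They were assigned to 15 of 40 genes (37.5%), and overlapping peaks to 32 of the 40. Over all protein-coding genes the shares were 4.71% and 11.5%, and the difference was not tested. The 15 were Kdr, the main receptor for VEGF, the scavenger receptors Stab2 and Cd36, the lectin Clec4g, the adhesion molecules Pecam1 and Cdh5, the TGF-beta coreceptor Eng, the factors Erg and Ets1, and Fcgr2b, Notch1, Nrp1, Oit3, Ptprb and Smad7. The midpoints assigned to Ptprb and Oit3 lay inside other genes, Ptprr and Ccdc109a. All but 1 of the 15 genes also held an overlapping peak, the exception being Smad7, an inhibitor of TGF-beta signalling. Over all genes with a MACS2-only peak, 36.8% also held an overlapping one. Notch1, Erg and Stab2 had 2 MACS2-only peaks each, beside 1, 4 and 3 overlapping peaks. Both MACS2-only peaks of Stab2 lay upstream of the gene, at 4334 and 6644 bp from its TSS. Number 5647, the one farther away, had 2 matches to WGATAR in its centre and was 528 bp from an SPP peak. Number 5709, the nearer one, had no WGATAR in the whole peak and was 2848 bp from an SPP peak.

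For the other cell types the counts were small, and with 4.71% over all genes nothing is read from them. MACS2-only peaks were assigned to none of 15 Kupffer cell genes and to 2 of 17 stellate cell genes (Lhx2 and Vcl). Among the defining markers, they were assigned to 4 of 6 for sinusoidal endothelium (Clec4g, Kdr, Pecam1 and Stab2), to 1 of 6 for hepatocytes (Hnf4a) and to none of 6 for Kupffer cells, 6 for stellate cells and 5 for bile duct cells. Overlapping peaks were assigned to all 6 endothelial markers and to 4 of the hepatocyte markers.

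None of 28 genes of plasma proteins had a MACS2-only peak assigned, but with 4.71% over all genes a list this short would hold few, and nothing is read from the count. Overlapping peaks were assigned to 10 of the 28, with 2 such peaks at albumin (Alb). Coagulation and complement genes had MACS2-only peaks in 3 of 29, F2 (prothrombin), F10 and F11. Lipid genes had them in 6 of 54 (Acacb, Cd36, Lcat, Lipc, Pnpla2 and Scd1) and overlapping peaks in 21. Only Cd36 had both kinds, and so 5 lipid genes were reached by MACS2-only peaks alone. Of all 1053 genes with a MACS2-only peak, 665 were reached by such peaks alone, and nothing is read from the lipid count. Bile acid genes had MACS2-only peaks in 2 of 18, Abcb4, the phospholipid exporter of bile, and Akr1d1, a steroid reductase. The midpoint assigned to Abcb4 lay 29959 bp upstream of its TSS, in an intron of another gene, Abcb1b.

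Enzymes of amino acid metabolism and the urea cycle had MACS2-only peaks in 7 of 24 genes (Aass, Arg1, Asl, Glul, Got1, Hpd and Otc), and overlapping peaks in 10. Over all protein-coding genes the shares were 4.71% and 11.5%, and the difference was not tested for this list or the next. Arg1, Glul, Hpd and Otc had MACS2-only peaks alone, as did 665 of all 1053 genes with a MACS2-only peak. Otc had 2, at -70 bp from its TSS and 5641 bp inside the gene in the first intron, with 2 matches and 1 match to WGATAR. The nearest SPP peak was 250335 and 244569 bp away. Glucose and glycogen genes had MACS2-only peaks in 8 of 28 (G6pc, Gpi1, Gys2, Insr, Irs2, Pfkfb3, Slc2a2 and Ugp2) and overlapping peaks in 14. Slc2a2, the glucose transporter of hepatocytes, had 2 upstream, at 12106 and 15937 bp from its TSS, beside 3 overlapping peaks.

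Liver transcription factors and nuclear receptors had MACS2-only peaks in 10 of 29 genes, of which 8 also had an overlapping peak. Over all protein-coding genes 4.71% had a MACS2-only peak, and 36.8% of those also had an overlapping one. Neither difference was tested. Foxa1 and Tcf7l2, a partner of beta-catenin, were reached by MACS2-only peaks alone. Hnf4a had 1 MACS2-only peak in its first intron, 3867 bp from its TSS, with no WGATAR in the centre and 2 in the whole peak. Onecut2 had 2 in its first intron, and no peak of either kind was assigned to Onecut1. Of 8 GATA and FOG genes, Gata2, Gata4 and Zfpm1 had MACS2-only peaks. Zfpm1, which encodes FOG1, had 2 MACS2-only and 5 overlapping peaks, and Gata4 had 1 of each kind. The MACS2-only peak in Gata4 lay in its second exon, in coding sequence with a GC content of 72.3% and no WGATAR in the whole peak. Gata6 had 1 overlapping peak, and none of either kind was assigned to Zfpm2.

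Among 15 of the genes that the study examined by qPCR, Amotl2, Arsa, F10, Hnf4a, Stab2 and Zfpm1 had a MACS2-only peak, and each also had an overlapping one. Over all protein-coding genes 4.71% had a MACS2-only peak, and 36.8% of these genes also had an overlapping one. Many of the 15 were examined by the study as genes with a GATA4 site, and 13 (86.7%) had an overlapping peak. A MACS2-only peak beside an overlapping one was therefore likely from the choice of genes, and nothing is read from it. Further genes that the study examined by qPCR are not counted here. Soat2, Cyp7b1, Inmt, Ppp4r4, Prkd3, Cish and Alb had overlapping peaks alone, and neither kind was assigned to Egfr or Onecut1. The study reported GATA4 at a site of each of these last genes by ChIP-qPCR, naming Onecut1 as HNF6. Since each peak goes to its nearest start site alone, a gene with no assigned peak may still hold one in its body or nearby.

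At start sites of genes in these lists there were 13 MACS2-only peaks, of which 8 belonged to genes with no overlapping peak. Of all 1053 genes with a MACS2-only peak, 665 had no overlapping one. WGATAR was in the central 300 bp of 8 of the 13 and in the whole peak of 10, GGGCGG in the centre of 5, and 3 had a CpG-rich centre. Over all MACS2-only peaks the centre held WGATAR in 66.6% and GGGCGG in 22.2%, and was CpG-rich in 19.8%. Nothing is read from these counts of 13. At F10 the midpoint was 110 bp inside the gene, in the first intron, and the peak ended 735 bp from an SPP peak. Its centre held the AGATAA printed above. At Cdh5 (34 bp) and Arsa (65 bp), the latter a lysosomal sulfatase, midpoints lay in the untranslated part of the first exon, with 2 and 1 matches. Lipc, hepatic lipase, had 2 matches at 152 bp and a further MACS2-only peak with none in its centre. The midpoint of that further peak was 5460 bp upstream of a start site but inside the gene, in a first intron. At Acacb and Pnpla2, a carboxylase of fatty acid metabolism and a triglyceride lipase, no WGATAR was found in the whole peak. Their midpoints lay 1 and 462 bp upstream of a start site but inside the genes, in a second and a first intron.

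The 10 MACS2-only peaks with the lowest numbers were 436 to 1847 bp wide. All 10 had WGATAR somewhere in the peak but only 5 had it in the central 300 bp, and 3 lay within 1 kb of a TSS. Of the 10, 3 stood together at Hjurp (numbers 265, 998 and 1116), at 10688, 1927 and 109 bp upstream of its TSS, with no overlapping peak assigned to that gene and the nearest SPP peak 17300 bp away or farther. Number 435 lay 143016 bp from Irf2bp2, a corepressor, and number 1206 was 57288 bp upstream of Zmiz1, a coactivator. Number 1374 lay 7445 bp past the start of Dusp6, a phosphatase of ERK, with 2 matches in its centre. Number 1415 was in the first exon of Ppp6c, a phosphatase subunit, in a CpG-rich centre with 3 matches, and 692491 bp from an SPP peak. Sdpr, a protein of caveolae, had number 1611 in its first intron, St3gal4, a sialyltransferase, had number 1631 at 368 bp upstream, and Dcbld1 had number 1664 in its second intron.

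Most of the 1053 genes had a single MACS2-only peak (950), 94 had 2 and 8 had 3. Plekhg1 alone had 4, at 46867 and 49059 bp inside the gene and at 21970 and 44829 bp upstream of a start site, with 5, 2, 0 and 1 matches to WGATAR. Genes with 3 included Hjurp, St3gal4, Stard8, Itga9, Vgll4, Cuedc1 and 2010111I01Rik. Stard8, on the X chromosome, and Hjurp had no overlapping peak assigned, whereas Cuedc1 and 2010111I01Rik had 3 each. All 3 peaks of Stard8 were in a first intron with 1 to 3 matches, and the nearest SPP peak was 2876143 bp away or more.

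The X chromosome differed from the autosomes, in a comparison chosen after the values were seen and given with no test. Of its 59 MACS2 peaks 29 were MACS2-only (49.2%, 36.8 to 61.6), against 1467 of 5808 on autosomes (25.3%, 24.2 to 26.4). On single autosomes the share ran from 20.1% on chromosome 12 to 31.4% on chromosome 9. WGATAR was in the centre of 86.2% of the MACS2-only peaks on X and 66.2% of those on autosomes.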

How the data were processed

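Per the methods and the submitters' processing notes, the authors placed reads on mm9 with Bowtie 0.12.7 and dropped those without a unique place. Peak calls from SPP (modified) and MACS2 2.0.10 were limited by a replicate rank threshold, and both lists were intersected with bedtools 2.16.1. The deposited score is 1000 for every peak and was not used. Overlap was counted from 1 bp. Sequence came from NCBI Build 37, the same build as mm9, and genes from GENCODE M1 (95495 transcripts, 22372 protein-coding genes); the study's own annotation was not used here.

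Motifs were matched exactly on both strands. Shares were compared by 2-sided Fisher's exact tests with Benjamini-Hochberg adjustment over 11 features, 14 motifs or 2080 words. Shares have Wilson and differences Newcombe intervals at 95%, which cover counting error only. Strata were tested by the exact Cochran-Mantel-Haenszel test. Read depth is unknown. The members, gene lists and motifs were chosen with earlier results of these data known.

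Peaks named were the 10 lowest numbers, those within 1 kb of the TSS of a listed gene, and the 5 with most WGATAR matches. Genes named were those with most MACS2-only peaks, listed genes with 2 or more, 15 of the study's qPCR genes, and GATA and FOG genes. The 5 most different words each way were named too. Other listed genes were named to complete a count. Some named items are not reported here. In 4 cases a listed symbol was not among the annotation names. Alternatives are given in the closing section. Scripts were tested on simulated data and ran under Python 3.11.15, R 4.3.3, samtools 1.23.1, pysam 0.24.0, pandas 2.3.3, scipy 1.17.1, numpy 2.4.6 and matplotlib 3.10.9.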

Additional observations from a re-analysis of the deposited data

How the results depend on the processing

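No replicate could be left out, and no paired analysis was possible because the peak lists pool the replicates and the input has no file. Of 109 alternatives of the main results, 83 kept the direction and the side of the threshold, or a count within 1.5 times. WGATAR, GC content, CpG-rich centres and the flank comparison did so under all of theirs. For the set with short forms, the exception was the value of -2.27 points within bins of GC content and of 500 list positions. Start sites (1.34 points) and promoter proximal midpoints (0.204) lost their call within CpG-rich and other centres, the strata that were added after seeing the data. The cause was not tested for the changes that follow. For peaks numbered 1 to 4000, first introns passed at 6.17 points and the rest of the gene did not at -4.34. With any base of the peak counted these were 5.30 and -2.85. Distances over 50 kb passed at -3.02 with protein-coding transcripts and at -4.01 and -4.05 within bins of 250 and 500 list positions, and intergenic midpoints turned to 0.744 and 0.441 in those bins. With MACS2-only peaks at least 1000 bp from any SPP peak, the difference in neighbours within 10 kb turned to -1.88.

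Of the 14 other motifs, 7 passed in all and 7 within bins of 250 list positions, against 2 in the central 100 bp and 3 in peaks numbered 1 to 4000. In the central 100 bp, NF-Y turned to 0.317 and the nuclear receptor sequence to 0.0462. In peaks numbered 1 to 4000, AP-1 turned to -2.27, NF-Y to 0.195 and CTCF to -0.191, and within bins of 250 list positions HNF4 turned to 0.0164, AP-1 to -1.06 and CTCF to -0.439. Of the words, 87 (67 higher, 20 lower) passed in the central 100 bp and 108 (88 and 20) in peaks numbered 1 to 4000, where fewer bases or peaks were tested. In the central 500 bp 641 passed, 317 of them lower, and in the whole peak 671, of them 401 higher and 270 lower. The reference marks no repeats, so the planned comparison of repeats at the midpoint was not run.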
